A study of Mus musculus with 18 samples.

Results

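The 10 genes described here encode the core subunits and the closest regulators of the mTOR complexes. They were the rows of the deposited tables with the symbols Mtor, Rptor, Mlst8, Akt1s1, Deptor, Rictor, Mapkap1, Tsc1, Tsc2 and Rheb, out of 23416 gene symbols used in each table. All 10 were found in every table, and all 10 passed the filter on low values in each. They were picked by symbol and role.

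RNA-seq had been run on whole lungs of mouse embryos at 14.5 days post coitus (dpc), when the airways branch, with 18 samples in 6 groups of 3. In 3 mouse lines, Cre recombinase expressed from the Shh locus deleted either Rptor or Tfam or Cox10 in airway epithelial cells. The deficient lungs were Rptorf/f; ShhCre/+, Tfamf/f; ShhCre/+ or Cox10f/f; ShhCre/+, where f is an allele flanked by Cre target sites. Their controls were Rptorf/+; ShhCre/+, Tfamf/+; ShhCre/+ or Cox10f/+; ShhCre/+, so that every sample carried ShhCre and the controls could also lose a copy of the targeted gene in the epithelium. The whole organ was sequenced, and mesenchyme, vessels and blood kept their copies. Tfam codes for a factor that maintains the mitochondrial genome, and Cox10 for a haem-modifying enzyme of the respiratory chain.

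mTOR is a protein kinase that works in a pair of complexes. In mTOR complex 1 (mTORC1) the scaffold RPTOR brings in substrates of protein synthesis and autophagy, and in mTOR complex 2 (mTORC2) RICTOR and MAPKAP1 direct the kinase to AKT, SGK and PKC. The small GTPase RHEB switches mTORC1 on at the lysosome, and the TSC1 and TSC2 complex holds RHEB in its inactive state when growth factors or energy are short. These controls act mostly on proteins, through binding and phosphorylation, which RNA levels do not measure.

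The transcripts of the mTOR complexes differed little between deficient and control lungs in the 3 lines. Of the 10 genes, 1 passed the threshold in the Rptor line, Mapkap1, which was lower in the deficient lungs, while 34.8% of all 14937 genes tested in that line passed. With the same-numbered control and deficient samples of that line paired, 2 members passed, Mapkap1 and Mlst8 (limma adjusted p = 0.0372 and 0.0278), while 38.6% of all genes did. None of the 10 passed in the Tfam line, where 4.66% of 15050 genes did, and none in the Cox10 line, where 0.475% of 14934 genes did. The threshold was an adjusted p below 0.05 in limma, which fits a linear model to the log2 values of all genes. At an unadjusted p below 0.05 the counts of members were 2 (Rptor line), 0 (Tfam line) and 1 (Cox10 line), against 45.6%, 17.4% and 13% of all genes. The median size of the log2 change over the members was 0.0673 for Rptor, 0.0592 for Tfam and 0.0326 for Cox10, and over all genes tested it was 0.219, 0.0981 and 0.101.

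Values are normalised read counts, in which the authors had divided the reads of a gene by a size factor of the sample, and samples summed to between 27725270 and 29608845. Every value was a whole multiple of a step close to 1, and if a step is taken as 1 read the samples held 27673878 to 29702682 reads. Epithelial marker genes were present in every group and passed the threshold in all lines. In the Rptor line 10 of 11 were lower, and their summed level was 28670 to 29390 in the control samples and 12300 to 15850 in the deficient samples. Among Tfam-deficient lungs 5 of 11 were lower, with sums of 25660 to 27270 against 20920 to 23440, and among Cox10-deficient lungs 3 of 11, with sums of 21440 to 21920 against 14720 to 19170. Mesenchymal markers were higher in 6 of 9 cases in the Rptor line, endothelial markers in 6 of 7, leukocyte markers in 3 of 3 and mesothelial markers in 2 of 3, Wt1 and Upk3b. The other mesothelial marker, Msln, went the other way, from 36.9 ± 7.48 to 20.2 ± 9.33 counts (SD, n = 3). Its log2 change of -0.93 did not pass (limma adjusted p = 0.0856). In the Tfam line 1 of 3 cardiac muscle markers passed, Nppa, at 131 ± 50.5 counts in control and 611 ± 56 in deficient lungs (SD, n = 3). In bulk samples such as these, fewer cells of a type and less RNA per cell cannot be told apart. The part of this shift in the values of the members was not tested.

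**Figure D1:**
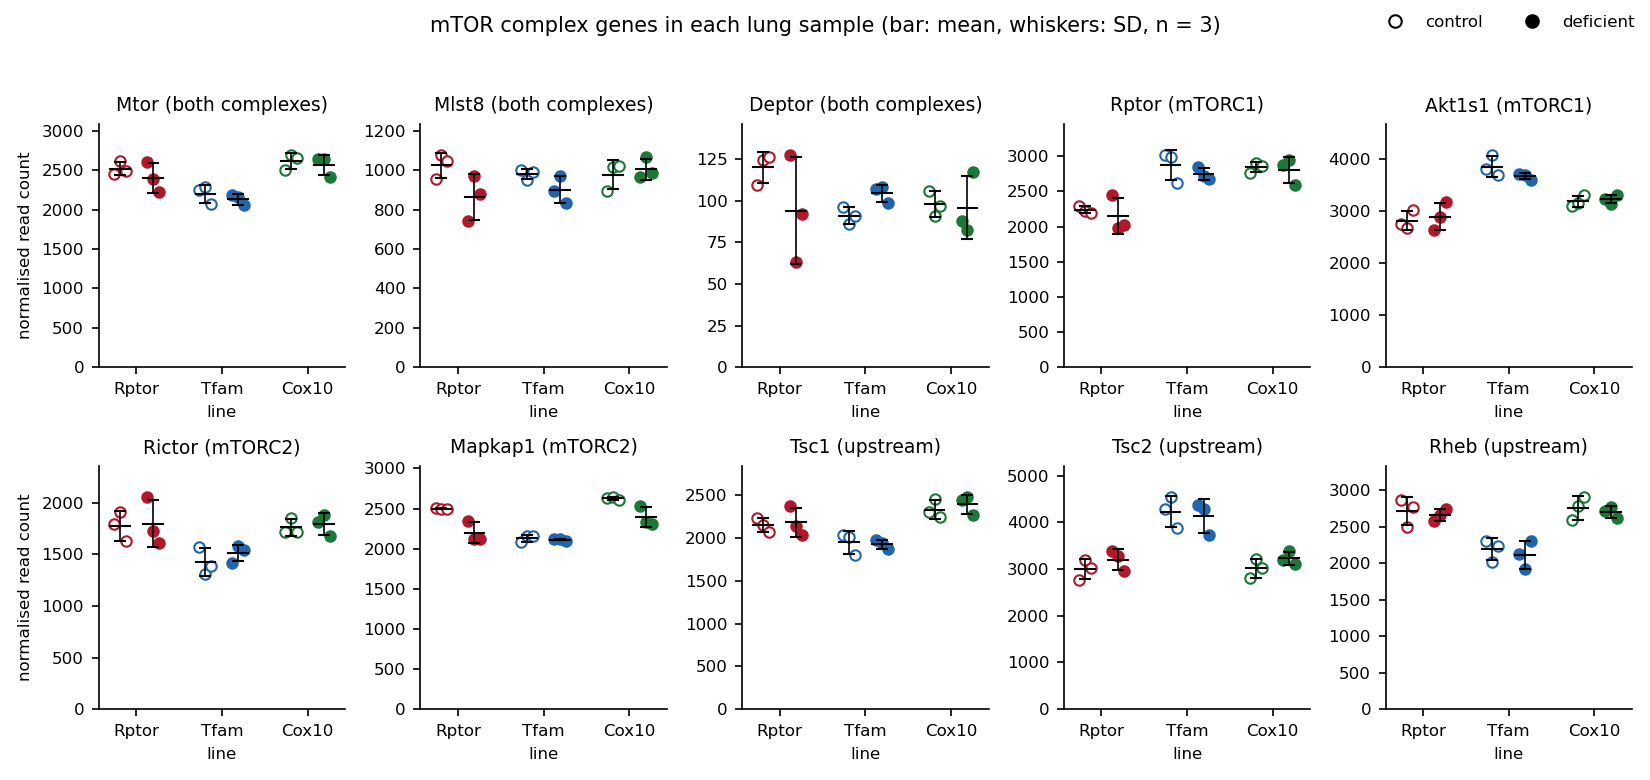
Normalised read counts (vertical axes, from 0) of the 10 genes in each sample, by line on the horizontal axes. Open points are control lungs and filled points deficient lungs, bars are means and whiskers SDs of 3 samples. The deficient points lie apart from the control points for Mapkap1 in the Rptor and Cox10 lines and for Deptor in the Tfam line, and the groups overlap elsewhere.

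Rptor itself, the targeted gene and the scaffold of mTORC1, is spread over 296672 bases of chromosome 11 (119602905 to 119899576, plus strand, GRCm38). In the Rptor line the control lungs had 2298, 2224 and 2197 normalised counts, and the deficient lungs had 2442, 1986 and 2020. Deficient replicate 1 was above every control and the other deficient samples were below every control. The log2 change was -0.07 (SE 0.0827, 95% interval -0.254 to 0.123, limma adjusted p = 0.57). The floxed allele is stated to become a null allele, and the tables give 1 value per gene, so that transcripts that lack a deleted stretch are not set apart from intact ones. The values of the labelled genotypes overlapped, so that whole-lung Rptor RNA is no check of the labels, and the part of cells that kept their copies was not tested. The value rested on single libraries: the log2 change was -0.16 without deficient replicate 1 (limma adjusted p = 0.0435), -0.01 without deficient replicate 2 (0.935) and -0.02 without deficient replicate 3 (0.863). The other targeted genes were no clearer, with a log2 change of -0.12 for Tfam in its line (SE 0.0788, limma adjusted p = 0.472) and -0.01 for Cox10 (SE 0.0703, limma adjusted p = 0.979).

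Where Rptor was not targeted it did not change beyond its spread either. The Tfam line had 3014, 2985 and 2625 counts of Rptor in control lungs and 2840, 2725 and 2675 in deficient lungs. In the Cox10 line the values were 2768, 2901 and 2868 against 2878, 2950 and 2593. The groups overlapped in both lines, with log2 changes of -0.06 (SE 0.0658, limma adjusted p = 0.681) and -0.02 (SE 0.0591, limma adjusted p = 0.889). All 6 samples of the Rptor line lay below all 12 samples of the other lines, controls included. The tables were normalised separately, and this difference between lines was not tested.

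Akt1s1 encodes PRAS40, a protein that binds RPTOR and restrains mTORC1 until AKT phosphorylates it. Per length it was among the highest of the members. Its control values of 2751, 2664 and 3018 in the Rptor line overlapped with 2629, 2878 and 3159 in the deficient lungs. The log2 change was 0.04 (SE 0.0793, limma adjusted p = 0.747). Loss of Tfam gave a change within the replicate spread too, at -0.07 (SE 0.0568, limma adjusted p = 0.583), as did loss of Cox10, at 0.02 (SE 0.0475, limma adjusted p = 0.866).

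Mapkap1, on chromosome 2 (34406771 to 34624950, plus strand), encodes SIN1, the subunit that positions substrates in mTORC2. In the Rptor line the control lungs had 2504, 2497 and 2498 counts, and the deficient lungs had 2346, 2125 and 2125. All deficient values were below all control values, a state that 50.3% of all genes tested in this line showed in either direction and that no other member showed there. The mean fell from 2499 ± 4.06 to 2199 ± 128 (SD, n = 3), a change of -12.1% or -0.19 on the log2 scale (SE 0.0584, 95% interval -0.319 to -0.0535, limma adjusted p = 0.0369). The call was lost when any of the 3 control samples, deficient replicate 2 or deficient replicate 3 was left out, with limma adjusted p-values of 0.0894 to 0.113, and was kept without deficient replicate 1, at 0.00742.

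Mapkap1 did not pass in the other lines. The Cox10 line had 2629, 2640 and 2606 counts in control lungs and 2532, 2329 and 2307 in deficient lungs, again without overlap, which 21.4% of all genes showed in that line. The log2 change of -0.14 (SE 0.0511, 95% interval -0.255 to -0.0189) did not pass the threshold (limma adjusted p = 0.346). In the Tfam line the control values were 2078, 2152 and 2159 and the deficient values 2116, 2117 and 2101, with a log2 change of -0.01 (SE 0.0529, limma adjusted p = 0.937). The effect in the Rptor line minus that in the Tfam line was -0.17 (SE 0.0694, limma adjusted p = 0.112).

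Rictor, the scaffold of mTORC2, did not follow Mapkap1. Its values in the Rptor line were 1794, 1915 and 1627 in control lungs and 2054, 1731 and 1610 in deficient lungs. Deficient replicate 1 was the highest of the 6 samples and deficient replicate 3 the lowest. The log2 change was 0.01 (SE 0.099, limma adjusted p = 0.94), and after loss of Tfam or Cox10 it was 0.09 (SE 0.0771, limma adjusted p = 0.601) or 0.03 (SE 0.062, limma adjusted p = 0.871). Control replicate 1 of the Tfam line, at 1572, stood above its 2 fellow controls at 1311 and 1389.

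**Figure D2:**
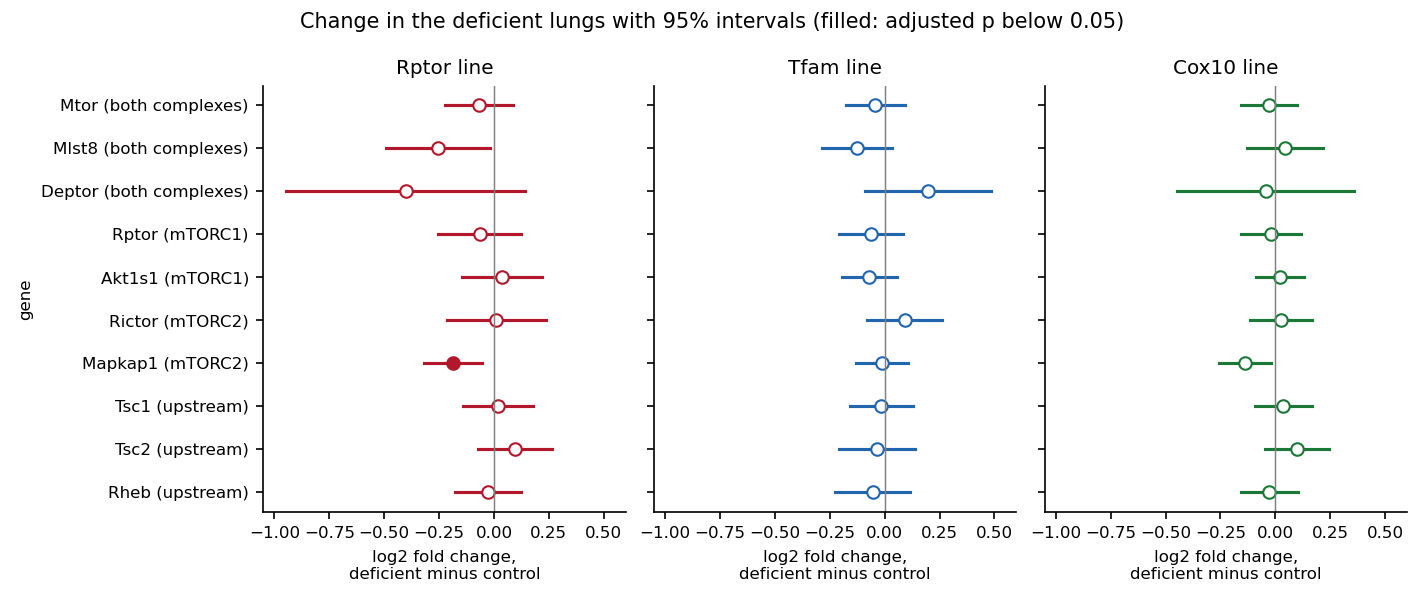
Log2 fold change of deficient against control lungs (horizontal axis) for each of the 10 genes in the 3 lines, with 95% intervals from limma. The filled point, Mapkap1 in the Rptor line, is the 1 of 30 comparisons past an adjusted p of 0.05, and Deptor has the widest intervals.

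Among the subunits shared by both complexes, the kinase gene Mtor was the least variable of the members on the log2 scale, with a range of 0.235 over the 18 samples after each line was centred on its controls. It lies on chromosome 4 (148448611 to 148557683, plus strand). Its control values in the Rptor line were 2460, 2616 and 2491, and its deficient values were 2609, 2389 and 2228. The groups overlapped, with a log2 change of -0.07 (SE 0.0683, limma adjusted p = 0.464). Single samples moved this value, to -0.13 without deficient replicate 1 (limma adjusted p = 0.119) and to -0.01 without deficient replicate 3 (limma adjusted p = 0.889). Tfam-deficient lungs showed -0.04 (SE 0.0608, limma adjusted p = 0.777) and Cox10-deficient lungs -0.03 (SE 0.0559, limma adjusted p = 0.844), within the replicate spread too. Angptl7, a gene on the opposite strand within the span of Mtor that shares 0 exon bases with it, was chosen after its values were seen. It rose in the Rptor line from 19.3 ± 17.9 to 268 ± 102 counts (SD, n = 3), by 4.01 on the log2 scale (SE 0.565, limma adjusted p = 0.00125). For Angptl7 the log2 change was 0.30 (limma adjusted p = 0.797) with Tfam deleted and 0.31 (limma adjusted p = 0.866) with Cox10 deleted.

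Mlst8 encodes the small subunit that binds the kinase domain in both complexes. In the Rptor line it had 955.4, 1077 and 1047 counts in control lungs and 743.4, 972.5 and 878.5 in deficient lungs. The highest deficient value was above the lowest control value, so that the groups overlapped. The log2 change of -0.25 (SE 0.104, 95% interval -0.491 to -0.0173) did not pass (limma adjusted p = 0.0897). With the replicate number as a block, which pairs the same-numbered control and deficient samples, its limma adjusted p was 0.0278 and the count of members past the threshold in the Rptor line was 2. Without the block, leaving out deficient replicate 2 gave -0.34 (limma adjusted p = 0.0411) and leaving out deficient replicate 1 gave -0.15 (limma adjusted p = 0.18), and in the fits without 1 of the other samples the limma adjusted p was 0.0978 to 0.231. The opposite-strand gene Bricd5 covers 25.6% of the exon bases of Mlst8, and whether the counting used strand is not given in the sources used here, so the value of Mlst8 is uncertain.

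Elsewhere Mlst8 stayed within its spread. Its mean was 981 ± 27.4 in Tfam control and 901 ± 68.6 in Tfam-deficient lungs (SD, n = 3), a log2 change of -0.12 (SE 0.0723, limma adjusted p = 0.414). In Cox10 lungs the means were 978 ± 72.7 and 1007 ± 53.5, a log2 change of 0.04 (SE 0.0745, limma adjusted p = 0.817). The effect in the Rptor line minus that in the Cox10 line was -0.30 (SE 0.126, limma adjusted p = 0.165).

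Deptor, an inhibitor that binds mTOR in both complexes, was by far the lowest member, with 63.38 to 127.5 counts per sample. In the Rptor line the control lungs had 109.7, 124.9 and 126.3 counts and the deficient lungs had 127.5, 63.38 and 91.9. Deficient replicate 1 was the highest of the 6 and the other deficient samples were the lowest. The log2 change was -0.40 (SE 0.239, 95% interval -0.948 to 0.143, limma adjusted p = 0.223), and it was -0.65 without deficient replicate 1 (limma adjusted p = 0.0307) and -0.15 without deficient replicate 2 (limma adjusted p = 0.598).

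Deptor took the opposite sign in the Tfam line. The control values were 96.52, 85.9 and 91.03 and the deficient values 107.2, 108.2 and 98.73, so that every deficient sample was above every control sample, which 22.8% of all genes there showed in either direction. The log2 change of 0.20 (SE 0.13, 95% interval -0.0892 to 0.486) did not pass (limma adjusted p = 0.479). In the Cox10 line 106.2, 90.78 and 96.94 overlapped with 87.82, 82.46 and 117.6, with a log2 change of -0.04 (SE 0.175, limma adjusted p = 0.927). The effect in the Rptor line minus that in the Tfam line was -0.60 (SE 0.274, limma adjusted p = 0.163).

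Tsc1 and Tsc2, the inhibitory pair upstream of RHEB, did not pass in any line. Tsc1 had 2235, 2149 and 2068 counts in the control lungs of the Rptor line and 2373, 2148 and 2032 in the deficient lungs, with a log2 change of 0.02 (SE 0.07, limma adjusted p = 0.847). Tsc2 had 2775, 3193 and 3024 against 3377, 3271 and 2958, with a log2 change of 0.10 (SE 0.073, limma adjusted p = 0.341). The groups overlapped for both genes.

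In the mitochondrial lines the log2 changes of Tsc1 were -0.01 (SE 0.0646, limma adjusted p = 0.937) in Tfam and 0.04 (SE 0.057, limma adjusted p = 0.793) in Cox10. For Tsc2 they were -0.03 (SE 0.0787, limma adjusted p = 0.867) and 0.10 (SE 0.0625, limma adjusted p = 0.515). The opposite-strand gene Pkd1 shares 10.9% of the exon bases of Tsc2. Tsc2 was between 3723 and 4539 in all 6 samples of the Tfam line and between 2775 and 3386 in the 12 others, a gap between separately normalised tables that was not tested.

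Rheb, the activator of mTORC1, had 2874, 2504 and 2777 counts in Rptor control lungs and 2577, 2665 and 2750 in Rptor-deficient lungs. The deficient values lay within the range of the controls, with a log2 change of -0.03 (SE 0.0653, limma adjusted p = 0.776). Rheb counts of 2310, 2024 and 2242 in Tfam control lungs overlapped with 2123, 1916 and 2299 in Tfam-deficient lungs, with a log2 change of -0.05 (SE 0.0779, limma adjusted p = 0.779). The Cox10 line had 2587, 2784 and 2905 against 2720, 2775 and 2619, with a log2 change of -0.03 (SE 0.0562, limma adjusted p = 0.849).

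Taking the 3 lines side by side, the deficient and control values overlapped in 27 of the 30 comparisons of a member in a line, and did not in 1 of the 10 members of each line. Of all genes tested, 50.3% did not overlap with Rptor deleted, 22.8% with Tfam deleted and 21.4% with Cox10 deleted. Without Deptor, the 95% intervals of all members ran from -0.491 to 0.262 on the log2 scale with Rptor deleted, from -0.285 to 0.261 with Tfam deleted and from -0.255 to 0.244 with Cox10 deleted. Falls below 0.712-fold and rises above 1.20-fold lay outside these intervals. Deptor was measured less closely, and its intervals reached from 0.518-fold to 1.40-fold.

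No member passed the threshold for a difference of effects between lines, tested in limma over all 18 samples without pairing them. In that fit, of the 14548 genes tested, 11.2% passed between the Rptor and Tfam lines, 7.49% between Rptor and Cox10 and 0.055% between Tfam and Cox10. With the same-numbered samples of each line paired, 0 members passed in any of the 3 pairs of lines. That fit also paired the Tfam and Cox10 lines, where the numbers were not taken as pairs. The lowest adjusted p was that of Mlst8 between Rptor and Cox10, a difference of -0.30 (SE 0.0979, limma adjusted p = 0.0753). The shares of all genes that passed when paired were 15.9%, 10% and 0.0344% in the same order. Unpaired, the members with an unadjusted p below 0.05 were Mapkap1 and Deptor for Rptor against Tfam and Mlst8 for Rptor against Cox10, whose values are given above, and there were 0 for Tfam against Cox10. The shares of all genes at that unadjusted p in this fit are not given here, so these counts have no background beside them. Without deficient replicate 1 of the Rptor line, 2 members passed for Rptor against Tfam, where 8.59% of 14490 genes did, Deptor with a difference of -0.84 (limma adjusted p = 0.036) and Mapkap1 with -0.22 (limma adjusted p = 0.043). Without deficient replicate 2 of that line the difference of Deptor was -0.35 (limma adjusted p = 0.351).

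That library stood out by gene length. For each library the median deviation of genes with over 6 kb of exon was set against that of genes with under 2 kb, each relative to the mean of its line, and the difference was 0.156 on the log2 scale in Rptor-deficient replicate 1, the highest of the 18, and -0.147 in Tfam control replicate 3, the lowest. The 6 members with over 6 kb of exon were Mtor, Rptor, Deptor, Rictor, Tsc1 and Tsc2. All 6 were highest in replicate 1 among the 3 Rptor-deficient samples, with a mean deviation of 0.165 from their line. The 4 shorter members had a mean deviation of -0.127 there, and 3 of them, Mlst8, Akt1s1 and Rheb, were lowest in it. In Tfam control replicate 3, 4 of the 6 longer members were the lowest of the controls. Once the trend of each library on exon length was removed, an alternative chosen after seeing the data, the log2 changes of Rictor and Tsc1 in the Rptor line were -0.04 and -0.02, with their sign reversed, and that of Mtor was -0.12 (limma adjusted p = 0.0929).

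**Figure D3:**
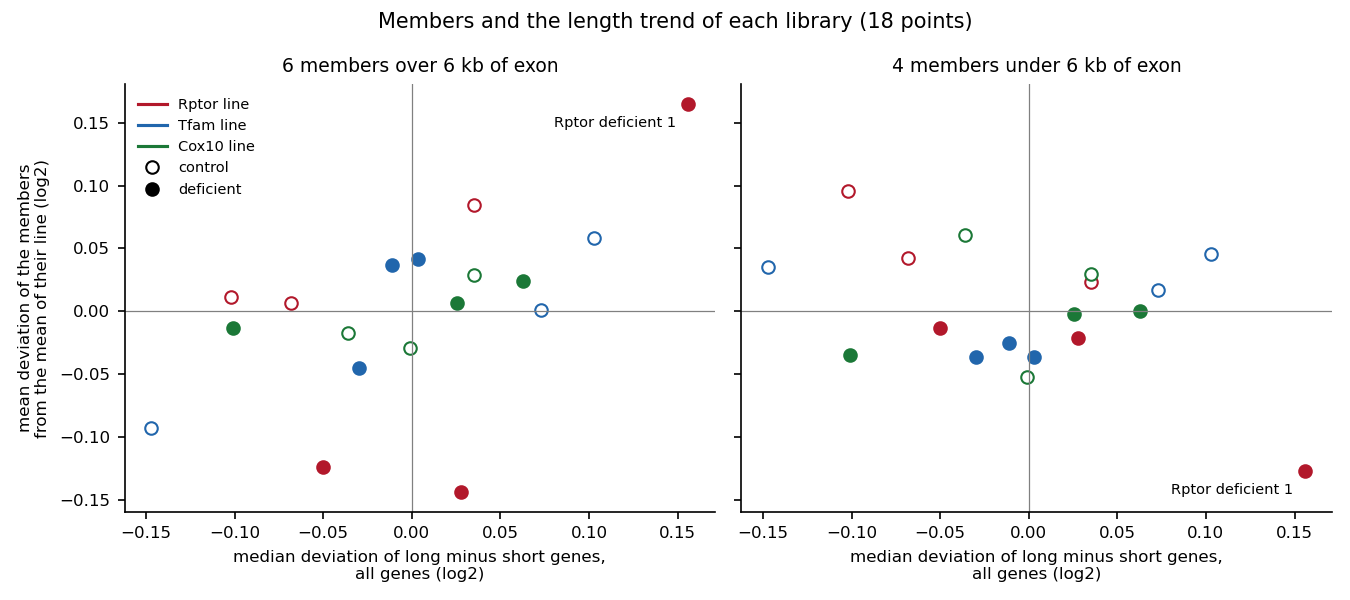
Mean log2 deviation of the 6 longer members (left) and the 4 shorter members (right) from the mean of their line, against the difference between long and short genes over all genes of the same library. Each point is 1 of 18 libraries, open for control and filled for deficient. Rptor-deficient replicate 1 lies at 0.156 on the horizontal axis, at 0.165 for the longer and at -0.127 for the shorter members.

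Per length the members kept an order that was much alike in all 6 groups. Exon lengths came from GENCODE M21 on GRCm38, and ran from 1784 bases for Rheb to 9312 for Rictor. They count every annotated exon of a gene, used or not in these lungs, so that levels and ranks per kb depend on the annotation. Rheb and Akt1s1 held ranks 1 and 2, with group means of 1180 to 1550 and 1130 to 1540 normalised counts per kb of exon. Rheb led in the Rptor and Cox10 lines and Akt1s1 in the Tfam line, and their ranges over samples did not overlap within any group. Mapkap1 (635 to 790 per kb) and Tsc2 (473 to 668 per kb) held ranks 3 and 4, and their ranges overlapped in both Tfam groups only.

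Rptor held rank 5 in every group, at 326 to 436 per kb, and Rictor rank 9, at 153 to 193 per kb. Between them, Mtor (243 to 298 per kb), Tsc1 (249 to 310 per kb) and Mlst8 (222 to 264 per kb) changed places, and Mtor and Tsc1 overlapped in every group. Deptor came last in every group, at 10.3 to 13.6 per kb. In Rptor-deficient lungs the range of Rptor also met that of Tsc1 and the range of Mlst8 that of Rictor. The ratio of Rptor to Rictor per kb, which does not depend on the scale of a sample, was 1.64 to 1.91 in Rptor control and 1.62 to 1.77 in Rptor-deficient lungs. It was 2.67 to 3.22 and 2.44 to 2.82 in the Tfam line, and 2.21 to 2.36 and 2.18 to 2.24 in the Cox10 line. The ranges of control and deficient lungs overlapped within each line, while the samples of the 3 lines fell into separate ranges.

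**Figure D4:**
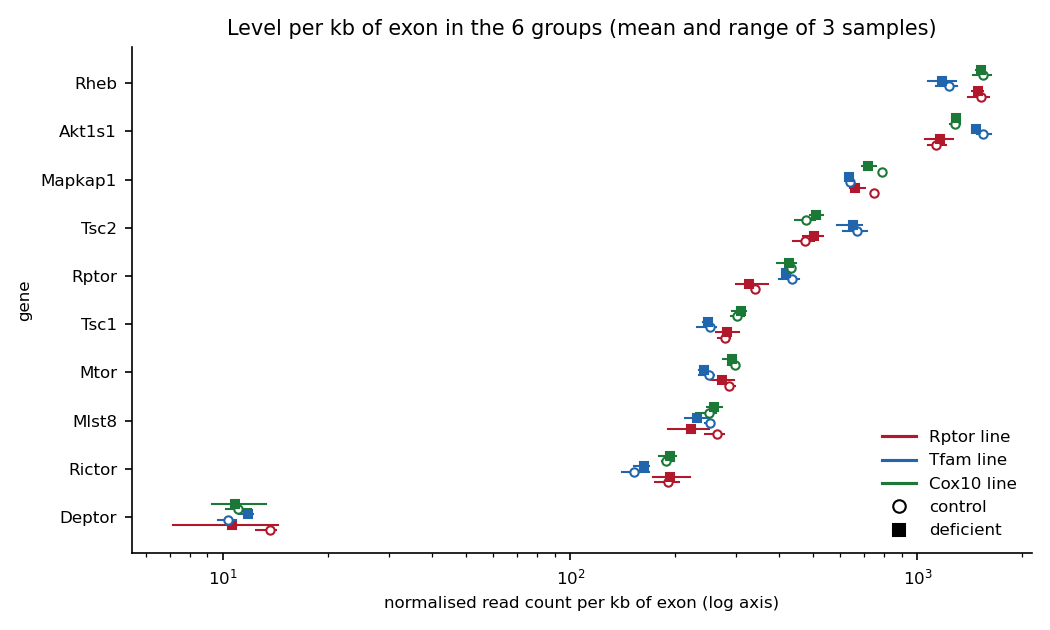
Normalised read count per kb of exon (horizontal log axis) of the 10 genes in the 6 groups. Points are means and lines the range of 3 samples, open for control and filled for deficient. The group means of Deptor lie at 10.3 to 13.6 per kb and its samples at 7.14 to 14.4, and the lowest sample of any other member is one of Rictor at 141 per kb.

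The genes whose values followed Rptor most closely over the 18 samples, each line centred on its controls, were Dlg5 (r = 0.92), Eif2c2, an older symbol of the Argonaute 2 gene (r = 0.913), and Cdk6 (r = 0.908), out of 12583 genes with a mean of at least 50 in every line. Among the members, Mtor (r = 0.857) and Tsc1 (r = 0.797) came nearest to Rptor, and Akt1s1 (r = -0.253) was farthest. Deptor, with the widest range of the members (1.18 on the log2 scale), was followed most closely by Ak4 (r = 0.913), Ddt (r = 0.816) and Ldha (r = 0.811). The 18 points share libraries, 3 tables and the length trend given above, and the coefficients are a description.

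Other genes of the pathway did pass in the Rptor line. Of 83 further genes listed, 82 were found and tested, and 23 passed in the Rptor line (28%), 13 higher and 10 lower, a share under the 34.8% of all genes. Their median log2 change was 0.02, against 0.01 over all genes tested. With Tfam deleted 3 of 82 passed (3.66%, against 4.66% of all genes) and with Cox10 deleted 1 of 82 (1.22%, against 0.475%), and all of these were higher. Without control replicate 2 or 3 the count in the Rptor line was 15 or 14, where 24% or 25.1% of all genes passed, and without control replicate 3 the count in the Tfam line was 9, where 7.46% of all genes did. With the replicate block the count in the Rptor line was 28, where 38.6% of all genes passed. Of the 23 genes called in the Rptor line, 13 passed whichever of the 6 samples was left out. The other 10 were lost without 1 or more samples, and these were Eif4ebp2, Flcn, Fnip1, Grb10, Insr, Irs1, Larp1, Maf1, Rragd and Seh1l. The shift of epithelial, mesenchymal, endothelial, mesothelial and leukocyte markers accompanied the same contrast, and its part in these changes was not tested.

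Partners of the complexes, which stabilise or assemble them, held 7 genes, of which 0 passed in any line by limma, and 1 had an unadjusted p below 0.05 in the Tfam line. Growth factor input held 13 genes, and in the Rptor line 4 were higher and 0 lower. Irs2, an adaptor of the insulin receptor, rose from 666 ± 16 to 962 ± 170 counts (SD, n = 3), by 0.52 on the log2 scale (SE 0.116, limma adjusted p = 0.00991). The insulin receptor gene Insr, Irs1 and the kinase gene Akt2 were the other 3 that rose, by 0.37, 0.21 and 0.35.

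Amino acid input, the Rag GTPases and their regulators, held 29 genes found, of which 3 were higher and 3 lower in the Rptor line. Sesn1, a sestrin that holds back mTORC1 through the GATOR complexes, rose from 1324 ± 49.2 to 1805 ± 56.2 counts (SD, n = 3), by 0.45 (SE 0.0594, limma adjusted p = 0.000962). Flcn and Fnip1, partners that act on RagC and RagD, rose by 0.32 and 0.38. Rragd, which encodes RagD, fell by 0.36 on the log2 scale (SE 0.118, limma adjusted p = 0.0419), and the GATOR2 subunit genes Sec13 and Seh1l fell by 0.32 and 0.21.

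Energy and stress input held 10 genes, of which 0 were higher and 2 lower in the Rptor line. Ddit4l, related to the mTORC1 inhibitor gene Ddit4, fell from 108 ± 17.7 to 41.2 ± 9.96 counts (SD, n = 3), by 1.39 on the log2 scale (SE 0.226, limma adjusted p = 0.00237). Prkag2, a subunit of AMP-activated kinase, fell by 0.33 (SE 0.069, limma adjusted p = 0.00726).

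Substrates and effectors held 23 genes, and 11 passed in the Rptor line, 6 higher and 5 lower. These were 47.8% of the list, against 34.8% of all genes and 0%, 30.8%, 20.7% and 20% of the 4 lists above in their order. Eif4e, the cap-binding translation factor that mTORC1 frees from its inhibitors, fell from 6073 ± 87.6 to 4262 ± 59.6 counts (SD, n = 3), by 0.51 on the log2 scale (SE 0.0461, limma adjusted p = 0.000183). Rps6kb1, which encodes S6 kinase 1, fell by 0.27, and Eif4ebp2, Larp1 and Grb10 fell by 0.22, 0.20 and 0.31. Those that rose included Pdcd4, an inhibitor of the helicase eIF4A that S6 kinase marks for degradation, from 2720 ± 77 to 3751 ± 38.9 counts or by 0.46 (SE 0.0495, limma adjusted p = 0.000396). Lpin1, a lipin kept out of the nucleus by mTORC1, rose by 0.89 (SE 0.12, limma adjusted p = 0.00105). Ndrg1, whose product is phosphorylated by the mTORC2 target SGK1, rose from 391 ± 13.1 to 946 ± 333 counts, by 1.22 (SE 0.2, limma adjusted p = 0.00247). Prkca, Ulk2 and Maf1 rose by 0.39, 0.28 and 0.24.

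**Figure D5:**
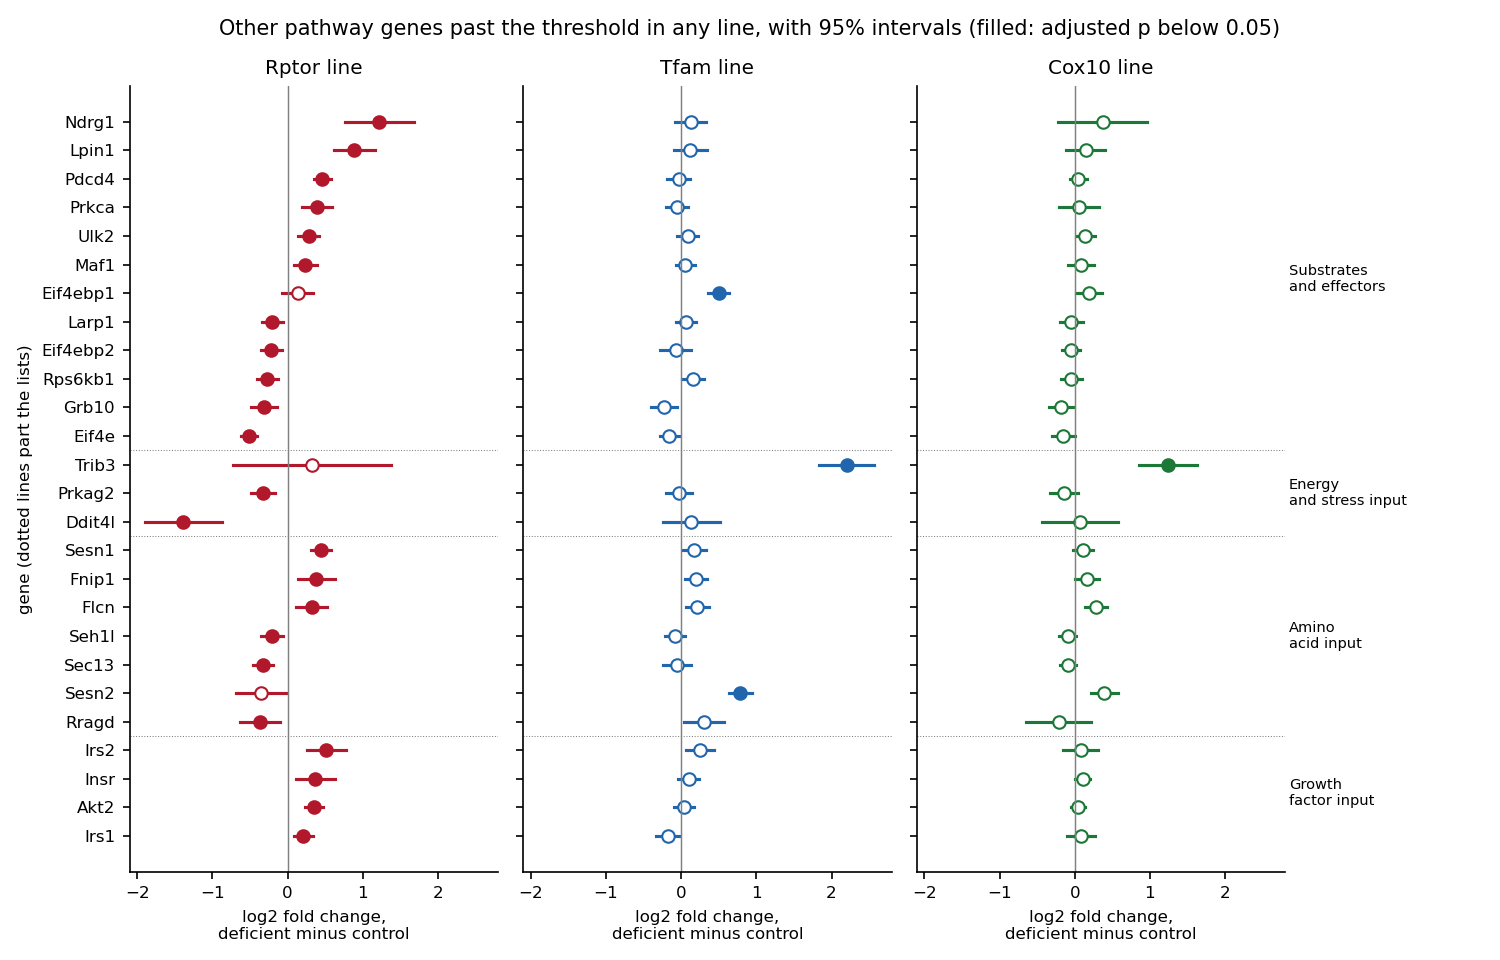
Log2 fold change of deficient against control lungs (horizontal axis) with 95% intervals for the 26 other pathway genes past the threshold in any line, in the 3 lines. Filled points passed an adjusted p of 0.05 in that line, and dotted lines part the lists. The Rptor line holds 23 filled points, the Tfam line 3 and the Cox10 line 1.

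Trib3, a pseudokinase gene of the integrated stress response, rose in the Tfam line from 58.2 ± 9.37 to 271 ± 41.7 counts (SD, n = 3), by 2.20 on the log2 scale (SE 0.163, limma adjusted p = 3.2e-05). With Cox10 deleted it rose from 42.7 ± 4.39 to 102 ± 10.1 counts, by 1.24 (SE 0.169, limma adjusted p = 0.0311). That call was lost in 4 of the 6 fits that left out a sample, those without control replicate 1, 2 or 3 or deficient replicate 2 (limma adjusted p up to 0.228). It was also lost with the replicate block (limma adjusted p = 0.0566), although the numbers were not taken as pairs in that line. Trib3 values in the Rptor line were 59.8 ± 2.68 and 92.5 ± 77.1 (limma adjusted p = 0.62).

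Sesn2, a stress-induced sestrin, rose in the Tfam line from 516 ± 10.5 to 890 ± 37 counts (SD, n = 3), by 0.78 (SE 0.0686, limma adjusted p = 9.32e-05). Loss of Cox10 gave a log2 change of 0.40 (limma adjusted p = 0.0888) and loss of Rptor a change of -0.35 (limma adjusted p = 0.0901). Eif4ebp1, the translation inhibitor that mTORC1 phosphorylates, rose in the Tfam line from 1977 ± 91.3 to 2791 ± 135 counts, by 0.50 (SE 0.0613, limma adjusted p = 0.000895). With Cox10 or Rptor deleted its log2 changes were 0.19 (limma adjusted p = 0.356) and 0.14 (limma adjusted p = 0.279). The values of these genes in the fit of differences between lines are not given here.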

How the data were processed

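RNA-seq of whole embryonic lungs gave 18 samples, 3 for each of 6 groups, and groups and replicate numbers came from the sample titles. There was 1 table per line, normalised on its own. In these tables the authors deposited a normalised signal, made by scaling read counts per gene with the size factor of a library. Each value was a whole multiple of a step of 0.978 to 1.02, and whether a step is 1 read was not settled. The submitters' processing notes name Trim Galore, HISAT2, featureCounts, DESeq2 and the mm10 genome, with no versions or strand setting. Deposited columns with the authors' own comparison (log2 fold change, with a raw and a corrected p-value) were not used.

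Values were analysed as log2(value + 1), and fold changes on this scale understate the change of genes with low values. In each line, genes with a value of at least 10 in at least 3 of 6 samples were fitted in limma 3.58.1 (R 4.3.3) with genotype as the only term (lmFit, eBayes with trend), and two-sided p-values got a Benjamini-Hochberg adjustment over all genes tested. Differences between lines came from a fit of all 18 samples with 6 groups, on genes tested in all 3 lines. A threshold of 0.05 was used for adjusted p. Of 23420 rows, those with a repeated symbol (2 symbols) were left out. Exon lengths and overlaps came from GENCODE M21 on GRCm38, the assembly of mm10. The fits were tested on simulated data.

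Replicates differed by more than sampling noise (chi-square per gene of at least 4.11, where about 1 is expected). The labels do not say how many animals a sample holds, and p-values measure the spread between these samples. In the Rptor line same-numbered control and deficient samples deviated together across genes, with correlations of 0.221, 0.33 and 0.259, and the numbers were taken as pairs there from this check. In the Tfam line (-0.312, -0.207 and 0.151) and the Cox10 line (0.447, 0.202 and 0.0487) they were not. Cox10 control replicate 2 correlated as closely with deficient replicate 3 (0.211). The main fit of each line was unpaired, and the replicate block was an alternative run in all 3 lines.

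The 10 members were named in every line, and of 5 further lists the 5 largest rises and 5 largest falls past the threshold in each line. Other genes of these lists, the cell type markers given by name and Angptl7 were named after their values were seen. For Rptor and the member with the widest range, the 3 genes with the highest Pearson r were named. The members, the lists and the rule were chosen with earlier results of these data known. Alternatives were trimmed mean of M-values scaling (30% of M and 5% of A trimmed), equal column totals, no filter, a mean of at least 50, pseudocounts of 0.1 and 5, the replicate block, all 18 samples in one fit, an adjusted p below 0.01, and leaving out each sample. A correction of each sample's lowess trend on exon length (span 0.3), alone or with the block, was chosen after seeing the data.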

Additional observations from a re-analysis of the deposited data

How the results depend on the processing

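With the samples kept, 293 of 300 alternative values of a member in a line had the sign and the side of the threshold given in the report. The exceptions were Mlst8 in the Rptor line, which passed with the replicate block (limma adjusted p = 0.0278), with all 18 samples in one fit (0.0311) and with the length correction and the block (0.02), and the reversed signs of Rictor (-0.0424) and Tsc1 (-0.0192) in the Rptor line under the length correction, with or without the block. The count of members past the threshold in the Rptor line was 1 in the report. It was 2 with the replicate block, with all 18 samples and with the length correction and block. It was 0 at an adjusted p below 0.01, and 0 to 3 when a sample was left out, the 3 without deficient replicate 1. Of all genes, 34.8% passed in the report and 38.6% with the replicate block. The share of all genes without deficient replicate 1 is not given here, so the 3 members have no background beside them. Nor are shares of all genes given for the other counts in this paragraph, beyond those in the report. Members past the threshold stayed at 0 in the Tfam and Cox10 lines under every alternative run. Other pathway genes in the Rptor line numbered 23 in the report, 28 with the replicate block, 11 at an adjusted p below 0.01, and 14 to 23 with a sample left out. In the Tfam line they numbered 3, or 6 with the length correction and the block, and 3 to 9 with a sample left out. In the Cox10 line they numbered 1, or 0 with the replicate block, with all 18 samples, at an adjusted p below 0.01 and with the length correction and block, and 0 to 1 with a sample left out. The cause was not tested. Members whose effects differed between the Rptor and Tfam lines numbered 0, and 0 to 2 with a sample left out, and 0 for the other pairs of lines. The pairing by number changed no other call of a member. Leaving out a sample reversed the sign in 22 of 180 values, none of them past the threshold, and the log2 changes of these members then ranged, in the Rptor line, from -0.0295 to 0.103 (Akt1s1), -0.0885 to 0.0872 (Rictor), -0.0412 to 0.0708 (Tsc1) and -0.0853 to 0.0142 (Rheb), in the Tfam line from -0.0724 to 0.017 (Tsc1), -0.0971 to 0.0392 (Tsc2) and -0.118 to 0.0136 (Rheb), and in the Cox10 line from -0.0603 to 0.0148 (Mtor), -0.0587 to 0.0345 (Rptor), -0.0196 to 0.0783 (Mlst8), -0.0016 to 0.0486 (Akt1s1), -0.198 to 0.0556 (Deptor), -0.0108 to 0.0731 (Rictor) and -0.0727 to 0.0111 (Rheb). Count tests in edgeR and DESeq2, planned for whole reads, were not run, because a step this close to 1 did not settle that the multiples were reads. With 3 samples a group, the 95% interval was wider for Deptor, the member with the lowest counts, than for the other members in each line.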
